A study of Mus musculus with 6 samples.

Results

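The transcripts encoded by the mitochondrial genome were followed in locus coeruleus tissue of 5xFAD and wild-type (WT) mice. The members are the 37 genes, of 56923 in the deposited table, whose Ensembl identifier carries a symbol that begins with mt-. They comprise 13 protein-coding genes, 2 ribosomal RNAs (mt-Rnr1 and mt-Rnr2) and 22 transfer RNAs. Punches of the locus coeruleus, the noradrenaline-producing nucleus of the brainstem, gave 3 libraries from 5xFAD mice, numbered 64, 65 and 79, and 3 from WT mice, numbered 62, 63 and 66. The 5xFAD line expresses mutant human APP of familial Alzheimer's disease from the neuronal Thy1 promoter, and the WT mice serve as its control. Ages and sexes were not given. Nothing in the labels says that each number is a separate animal, so p-values measure only the spread between these libraries, which may be partly technical. The poly-A selected libraries held 15158712, 16483738 and 17774759 reads on genes in 5xFAD and 19343185, 20079349 and 17362733 in WT. All values below are normalized counts, that is reads divided by the authors' size factor of the library, unless a percentage is named. Of the 12 noradrenergic markers 12 were measurable, and Dbh, the enzyme that makes noradrenaline, read 1879, 2895 and 2090 in 5xFAD and 2187, 2492 and 1281 in WT.

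Mitochondria keep a small circular genome that codes for core subunits of the respiratory chain and for the ribosomal and transfer RNAs needed to translate them. Both strands are transcribed as long precursors by the polymerase Polrmt, and most messengers are freed by cutting out the transfer RNAs that stand between them. The coding genes supply subunits of complexes I, III, IV and V, while all other subunits come from nuclear genes. Fragments of mitochondrial DNA have also been copied into the nuclear genome during evolution, and where such a copy is nearly identical to its source, short reads cannot be placed on one or the other with certainty.

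Sequences are shown first for the places where mitochondrial transcripts cannot be told apart from other annotated genes. In the mouse GENCODE M21 transcripts, 7 unprocessed pseudogenes on the minus strand of chromosome 1 matched 7 of the coding genes at 99% identity or more over at least 100 bases. Gm28661 was identical to mt-Co2 over 681 of the 684 bases of that gene, Gm28437 to mt-Co3 over 783 of 784, Gm10925 to mt-Atp6 over 678 of 681 and Gm10222 to mt-Nd4l over 294 of 297. Each copy ended just before the stop codon of its source, as the last bases of both show, with the bases found only in the mitochondrial gene in capitals, written 5′ to 3′:
mt-Co2: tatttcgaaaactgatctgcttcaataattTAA
Gm28661: tatttcgaaaactgatctgcttcaataatt
mt-Atp6: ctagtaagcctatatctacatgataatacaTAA
Gm10925: ctagtaagcctatatctacatgataataca
mt-Co3: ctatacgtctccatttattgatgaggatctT
Gm28437: ctatacgtctccatttattgatgaggatct

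Gm28438 matched mt-Nd3 at 344 of 345 bases and differed by T3C, with the base of the mitochondrial gene first and positions counted from its first base. The first bases of the pair show this difference in capitals:
mt-Nd3: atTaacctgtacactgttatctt
Gm28438: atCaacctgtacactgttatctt

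Gm29216 matched mt-Co1 at 482 of 483 bases, from base 1063 to base 1545, and Gm28439 matched the first 876 of 1378 bases of mt-Nd4. The copies lay in the order in which their sources lie on the mitochondrial genome. A further 22 annotated gene models were 80% to 99% identical to a mitochondrial gene. None of these reached 10 normalized counts in a library, and the highest value was 7.15.

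Neighbouring coding genes also share bases with each other. The end of mt-Atp8 and the start of mt-Atp6 have 43 bases in common, which are 21.1% of mt-Atp8 and 6.31% of mt-Atp6, and the 7 bases shared by mt-Nd4l and mt-Nd4 hold the start codon of mt-Nd4. The shared bases are in capitals:
mt-Atp8 into mt-Atp6: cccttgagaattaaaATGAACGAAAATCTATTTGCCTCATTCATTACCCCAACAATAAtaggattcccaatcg
mt-Nd4l into mt-Nd4: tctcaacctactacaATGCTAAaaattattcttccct

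Of the 13 coding genes, 10 ended in a complete stop codon in the reference. The other 3, mt-Co3, mt-Nd4 and mt-Cytb, ended in a single T, which is completed to a stop codon by the poly-A tail. The ends of 2 of them show the incomplete codon in capitals:
mt-Co3: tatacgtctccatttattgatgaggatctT
mt-Nd4: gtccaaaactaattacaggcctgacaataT

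The mitochondrial messengers and ribosomal RNAs were present at high levels in every library, while the transfer RNAs were nearly absent from these poly-A selected libraries. Of the 37 members 18 had at least 1 read, and 15 (the coding genes and both ribosomal RNAs) passed the filter of 10 normalized counts in 3 libraries. The 22 transfer RNAs, 59 to 75 bases long, gave 3 reads in all. These were 1 read of mt-Tn in 5xFAD library 64, 1 of mt-Ts1 in 5xFAD library 65 and 1 of mt-Ty in 5xFAD library 79. The other 19 were at 0 in all 6 libraries, and a count of 0 allows up to 3 reads in a library. The mitochondrial genes took 7.66%, 7.68% and 7.58% of the reads in 5xFAD, against 8.41%, 7.54% and 8.21% in WT. The 5xFAD libraries lay close together and inside the WT range, which was set by the low library 63 and the high library 62. The means were 7.64% ± 0.0506 in 5xFAD and 8.06% ± 0.456 in WT (SD, n = 3 each), a difference of −0.413 percentage points with an exact two-sided permutation p of 0.4, where 0.1 is the smallest p that 3 against 3 libraries can give.

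The 7 chromosome 1 copies held another 2.54% ± 0.0731 of the reads in 5xFAD and 2.72% ± 0.109 in WT (SD, n = 3 each). These reads were 24.9%, 25.4% and 24.5% of all reads on mitochondrial genes and copies in 5xFAD, and 24.8%, 25.6% and 25.3% in WT. Which of them came from mitochondrial transcripts cannot be told from gene totals. Genes and copies summed had 10.2%, 10.3% and 10.05% of the reads in 5xFAD, against 11.2%, 10.1% and 10.998% in WT. The groups again overlapped (difference −0.593 percentage points, exact two-sided permutation p = 0.3).

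How the reads of a pair were divided differed from pair to pair and from library to library. Of the reads on mt-Co2, a catalytic subunit of complex IV, and its copy Gm28661, 3.28%, 3.62% and 3.24% were on mt-Co2 in 5xFAD, against 4.31%, 3.73% and 4.12% in WT. All 3 5xFAD libraries lay below all 3 WT libraries, at the smallest exact two-sided permutation p that 3 against 3 allow, 0.1, with no adjustment for the other pairs. For mt-Co3, also of complex IV, the percentage on the mitochondrial gene was 5.80, 6.80 and 7.89 in 5xFAD and 8.76, 5.02 and 3.80 in WT, so WT libraries stood at both ends. For mt-Atp6, the proton channel subunit of complex V, it was 27.4, 19.9 and 26.4 in 5xFAD and 28.5, 24.6 and 25.6 in WT. For mt-Nd3, a small subunit of complex I, it was 40.4, 36.1 and 40.4 in 5xFAD and 37.6, 35.8 and 36.0 in WT. The groups overlapped in mt-Co3, mt-Atp6 and mt-Nd3. Nearly all reads of the mt-Nd4l and mt-Co1 pairs were on the mitochondrial gene, and Gm28439, the partial copy of mt-Nd4, was at 0 in all 6 libraries. Gm10222, the copy of mt-Nd4l, read 5.78, 3.12 and 349.9 in 5xFAD and 0, 0 and 461.5 in WT, so 1 library of each group stood apart. For this reason each result below is given for the mitochondrial gene as deposited and, where it matters, with the reads of its copy added.

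**Figure D1:**
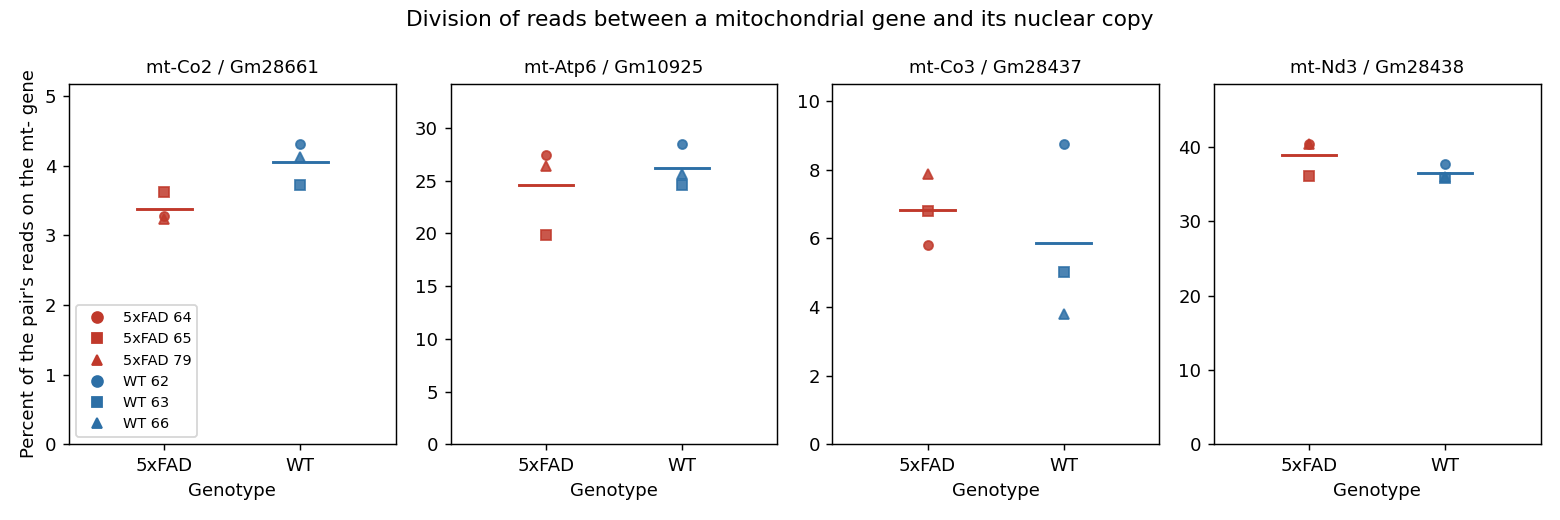
Percent of the reads of a mitochondrial gene and its chromosome 1 copy that the deposited table places on the mitochondrial gene, for 4 pairs, with 1 point per library and a line at the mean of each genotype. The groups are apart for mt-Co2 and overlap for mt-Atp6, mt-Co3 and mt-Nd3.

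Levels were compared between genes as normalized counts per kb of transcript, averaged over the 6 libraries. The libraries were poly-A selected, so the order below, which includes the ribosomal RNAs, is one of captured reads. It need not be the order of abundance in the tissue, and how well each transcript was captured was not tested. As deposited, mt-Co1 was highest at 307725 per kb and mt-Co2 was lowest at 11136 per kb, a 27.6-fold range, and mt-Co3 stood at 13273 per kb. With the copies added, mt-Co1, mt-Co2 and mt-Co3, the 3 subunits of complex IV, were the 3 highest. The level of mt-Co1 was then above that of mt-Co2 in 4 of 6 libraries, so their order is not settled, and mt-Co2 was above mt-Co3 in 6 of 6. mt-Atp6 came next, followed by mt-Nd1, mt-Cytb of complex III, mt-Nd4, mt-Nd2 and mt-Nd3, each above the next in 6 of 6 libraries. mt-Nd5 was above mt-Rnr2 in 4 of 6 libraries, and those 2 genes were followed by mt-Rnr1, mt-Nd4l and mt-Nd6. mt-Nd6 is the only coding gene read from the other strand, and it stood at 34234 per kb. mt-Atp8, the short gene that shares its end with mt-Atp6, was lowest once the copies were added, at 13689 per kb. Counts were divided by the full transcript length, without a correction for the reads that a short gene can hold. mt-Atp8 has 204 bases and mt-Nd4l 297, so their places may in part reflect length and shared bases, which was not tested.

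**Figure D2:**
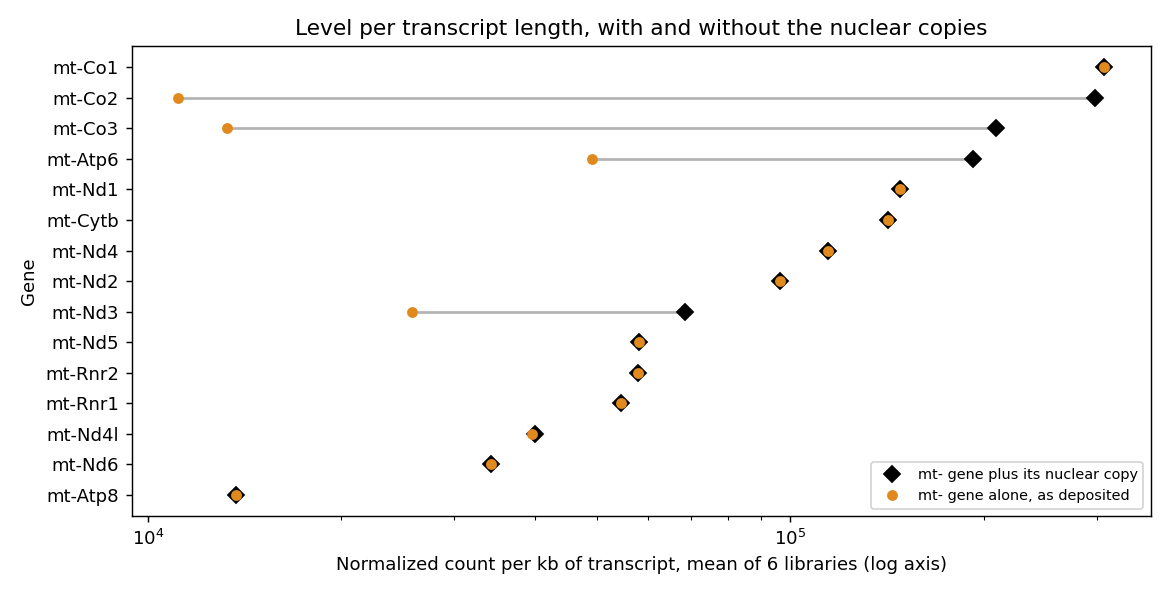
Normalized count per kb of transcript, mean of 6 libraries on a log axis, for the 15 measured mitochondrial genes as deposited (circles) and with the reads of the nuclear copy added (diamonds). mt-Co2, mt-Co3, mt-Atp6 and mt-Nd3 move to higher levels, and the other 11 genes stay where they were or within a small step.

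The genotype comparison asks whether mitochondrial transcripts differed between 5xFAD and WT tissue. None of the 15 measured members passed the limma test at a Benjamini-Hochberg adjusted p of 0.05 over 16411 genes (limma adjusted p = 0.9995 for each), where 0.00609% of all tested genes passed, a single gene, Thy1. Most members were slightly lower in 5xFAD: 14 of 15 had a log2 fold change (5xFAD over WT) below 0, beside 49.8% of all tested genes, with a median of −0.09 against 0.0005 for all tested genes. The members share transcripts, precursors and libraries, so their common sign is not independent evidence for each of them. At an unadjusted limma p under 0.05 there were 3 members, mt-Co2, mt-Nd4l and mt-Nd6, each lower in 5xFAD, beside 1.05% of all tested genes on the lower side and 2.32% on either side. In 4 members, these 3 and mt-Rnr1, all 5xFAD libraries lay below all WT libraries, beside 3.7% of all tested genes. In no member did they all lie above, beside 3.72%. With the copies added, 0 of 15 were called, beside 0.0061% of 16406 genes, 15 of 15 were below 0 and the median was −0.10. Under quantile normalization, which sets ties to a difference of 0, 10 of 15 members as deposited (median −0.07) and 8 of 15 with the copies added (median −0.03) were below 0. Without quantile normalization and with the copies added, all 5xFAD libraries lay below all WT libraries in 5 members, beside 3.69% of all tested genes. The 95% intervals of 12 of 15 members as deposited, and of 15 of 15 with the copies added, lay within 1.5-fold in either direction, beside 71.4% of all tested genes and 98.0% of the 1175 other genes with a mean at least as high as that of the lowest measured member. In bulk tissue, fewer cells rich in mitochondria and less RNA per cell cannot be told apart.

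**Figure D3:**
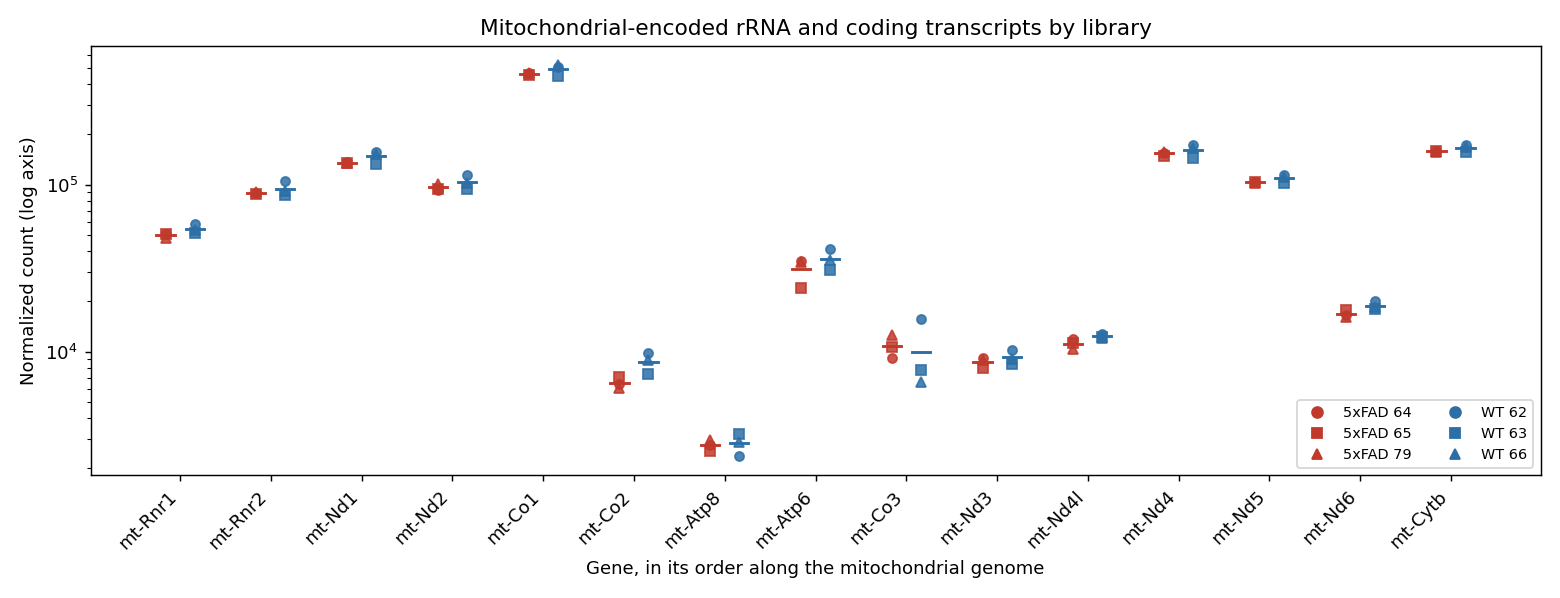
Normalized count on a log axis of the 13 coding genes and 2 ribosomal RNAs, in their order along the mitochondrial genome, with 1 point per library and a line at the group mean. WT library 62 is the highest library in 13 of 15 genes, and the genotypes overlap in 11 of 15.

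Complex IV is part of the respiratory chain, and its mitochondrial genes gave both the lowest and the highest fold change among the 15 measured members as deposited. mt-Co2 read 6452, 7089 and 6069 in 5xFAD, against 9776, 7379 and 8938 in WT. The groups did not overlap, and the closest libraries were 5xFAD 65 and WT 63. The log2 fold change was −0.41 (SE 0.10, 95% interval −0.65 to −0.16, limma adjusted p = 0.9995). In the authors' deposited table mt-Co2 had the 6th smallest p of 28317 genes, with a log2 fold change of −0.41 (SE 0.10), p = 6.04e-05 and an adjusted p of 0.285. These values belong to the few percent of the pair's reads that were placed on mt-Co2. Its copy Gm28661 read 190512, 188953 and 181513 in 5xFAD, against 216850, 190657 and 207846 in WT. Added together, the pair read 196963, 196042 and 187581 in 5xFAD, against 226626, 198036 and 216784 in WT. The groups still did not overlap, but the log2 fold change of the pair was −0.14 (SE 0.06, 95% interval −0.29 to 0.004, limma adjusted p = 0.9995), and the adjusted p of the pair by DESeq2 on the recovered reads was 0.9999. The pair was 425th of 16406 genes by its limma p, where mt-Co2 alone was 17th of 16411.

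mt-Co3 read 9200, 10708 and 12564 in 5xFAD, against 15595, 7774 and 6596 in WT. The WT libraries held both the highest and the lowest values, and the log2 fold change of 0.21 had an SE of 0.37. Its sign turned to −0.04 without WT library 66. With the copy Gm28437 the pair read 158697, 157458 and 159274 in 5xFAD, against 178103, 154886 and 173399 in WT, and the log2 fold change was −0.09 (SE 0.06). The sum thus spread far less between libraries than the reads placed on mt-Co3 alone. mt-Co1, the subunit that holds the oxygen-reducing centre, read 464323, 455236 and 465035 in 5xFAD, against 505032, 445950 and 517035 in WT. WT library 63 was the lowest of all 6, and the log2 fold change was −0.08 (SE 0.07).

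In complex I, which takes electrons from NADH, 7 subunits are encoded in mitochondria. mt-Nd6 read 16500, 17656 and 16119 in 5xFAD, against 19990, 17939 and 18403 in WT. The groups were apart by a narrow margin (log2 fold change −0.16, SE 0.06, 95% interval −0.30 to −0.03, limma adjusted p = 0.9995). mt-Nd4l read 11907, 11243 and 10356 in 5xFAD, against 12696, 12318 and 12097 in WT, again without overlap (log2 fold change −0.15, SE 0.06, limma adjusted p = 0.9995).

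mt-Nd3 read 9226, 8020 and 8863 in 5xFAD, against 10181, 8488 and 9099 in WT, with overlapping groups and a log2 fold change of −0.09 (SE 0.08). Its copy Gm28438, which differs from it by the single base shown above, read 13628, 14185 and 13059 in 5xFAD, against 16862, 15218 and 16188 in WT. The copy alone had a log2 fold change of −0.24 (SE 0.06, limma adjusted p = 0.9995). The pair read 22854, 22205 and 21922 in 5xFAD, against 27043, 23706 and 25287 in WT, and the groups were apart (log2 fold change −0.18, SE 0.06, limma adjusted p = 0.9995). For this gene the addition of the copy made the fold change larger, where for mt-Co2 it made it smaller.

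The other complex I genes overlapped between the genotypes. mt-Nd1 read 136303, 134734 and 135376 in 5xFAD, against 157859, 133462 and 152525 in WT (log2 fold change −0.12, SE 0.07). mt-Nd2 had a log2 fold change of −0.10 (SE 0.08), mt-Nd4 of −0.06 (SE 0.07) and mt-Nd5 of −0.07 (SE 0.06). In mt-Nd1 the 5xFAD libraries lay within a narrow band between WT library 63 and the other WT libraries.

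mt-Cytb, the only mitochondrial subunit of complex III, read 158192, 159296 and 156672 in 5xFAD, against 172149, 157299 and 168734 in WT (log2 fold change −0.07, SE 0.06). In complex V, the ATP synthase, mt-Atp6 read 34906, 24134 and 34348 in 5xFAD, against 41134, 30926 and 35269 in WT, with a log2 fold change of −0.21 (SE 0.17), which was −0.04 without 5xFAD library 65 and −0.11 without WT library 62. 5xFAD library 65 stood well below the other 5 libraries. With the copy Gm10925 added it was still the lowest, but by a small gap: the pair read 127213, 121269 and 130213 in 5xFAD, against 144242, 125810 and 137568 in WT (log2 fold change −0.10, SE 0.07). mt-Atp8 read 2763, 2539 and 2981 in 5xFAD, against 2386, 3209 and 2876 in WT (log2 fold change −0.02, SE 0.11). Here WT library 62, the highest in 13 of the 15 genes, was the lowest. The sign of this small value turned to 0.03 without 5xFAD library 65 and to 0.07 without WT library 63.

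Both ribosomal RNAs of the mitochondrial ribosome were measured in spite of poly-A selection. mt-Rnr1, of the small subunit, read 50881, 50674 and 48085 in 5xFAD, against 57970, 51102 and 53655 in WT. The groups were apart by a small gap (log2 fold change −0.12, SE 0.06, limma adjusted p = 0.9995). mt-Rnr2, of the large subunit, read 89037, 87358 and 90798 in 5xFAD, against 105162, 86208 and 91208 in WT (log2 fold change −0.08, SE 0.08), and the groups overlapped.

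**Figure D4:**
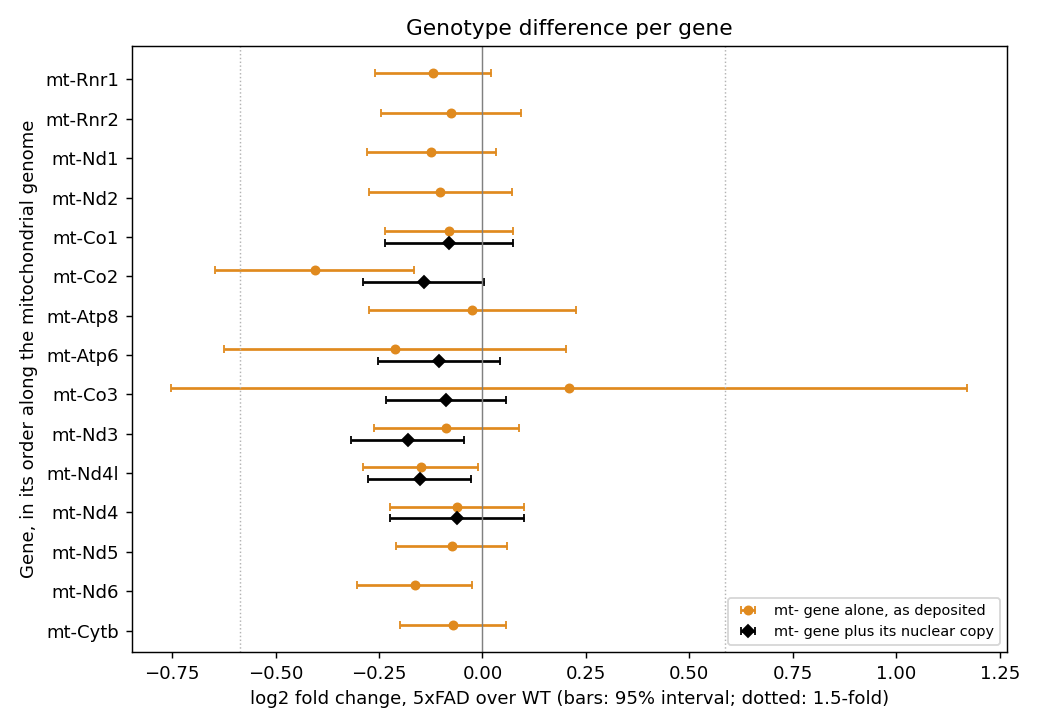
Log2 fold change of 5xFAD over WT for the 15 measured mitochondrial genes as deposited (circles) and, for the 7 with a nuclear copy, with the reads of the copy added (diamonds). Bars are 95% intervals of the limma fit and the dotted lines mark 1.5-fold, so the shift of mt-Co2 from −0.41 to −0.14 and the narrower interval of mt-Co3 after adding the copies can be read directly.

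The make-up of the mitochondrial coding transcripts was compared as the percentage of each gene in the reads of all 13, which does not depend on library scaling. As deposited, mt-Co1 took 38.6% ± 0.0922 in 5xFAD and 38.4% ± 0.992 in WT (SD, n = 3 each). mt-Cytb, mt-Nd4 and mt-Nd1 each took more than 11% in both genotypes as deposited. The 5xFAD libraries lay below the WT libraries in 2 of 13 genes, mt-Nd1 with 11.3% ± 0.119 in 5xFAD and 11.6% ± 0.134 in WT, and mt-Co2 with 0.547% ± 0.0506 in 5xFAD and 0.680% ± 0.0461 in WT (SD, n = 3 each). In none did they lie above. Such a separation has an exact two-sided permutation p of 0.1, the smallest that 3 against 3 libraries can give. The 13 percentages share a common total, so they are not independent of each other. The smallest adjusted p over the 13 genes was 0.65 (exact two-sided permutation test, Benjamini-Hochberg). With the copies added the make-up was different. mt-Co1 then took 28.2% ± 0.120 in 5xFAD and 27.9% ± 0.684 in WT (SD, n = 3 each). mt-Co2 took 11.8% ± 0.358 in 5xFAD and 12.2% ± 0.149 in WT (SD, n = 3 each). The group means of mt-Cytb, mt-Nd4 and mt-Nd1 lay between 8.26% and 9.64%. Only mt-Nd3 was without overlap with the copies added, and the smallest adjusted p was 0.433. As deposited, mt-Nd6, the gene read from the other strand, had 1.40% ± 0.0863 in 5xFAD and 1.48% ± 0.0680 in WT (SD, n = 3 each), with overlap.

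Single libraries carried much of the difference between the genotypes. The mean log2 value of the 13 coding genes was 15.13, 15.08 and 15.15 in 5xFAD, against 15.35, 15.11 and 15.20 in WT, a difference of −0.10. Without WT library 62 the difference was −0.04, and without WT library 63 it was −0.16. WT library 62 was the highest in 13 of 15 members, and WT library 63 and 5xFAD library 79 were each the lowest in 5. Without WT library 63, 8 of 15 members were at an unadjusted limma p under 0.05, where 975 of 16208 genes were. With the copies added it was 12 of 15, where 976 of 16203 genes were. With all libraries as deposited it was 3 of 15, where 381 of 16411 genes were. Without WT library 62 it was 2 of 15, where 294 of 16252 genes were, and 0 of 15 with the copies added, where 291 of 16247 genes were. No member passed the adjusted threshold in any of these fits.

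Levels of cerebellar transcripts also differed between these libraries. All 10 markers of cerebellar granule and Purkinje cells, neurons of the structure that overlies the locus coeruleus, were measurable and had log2 fold changes above 0, and none was at an adjusted p under 0.05. Their sum was 13498, 22688 and 8339 in 5xFAD, against 4816, 17933 and 6754 in WT. The 2 libraries with the lowest cerebellar sums, WT 62 and WT 66, had the highest percentages of mitochondrial reads, and WT 63, with the second highest sum, had the lowest percentage. Among the 5xFAD libraries, whose sums ranged from 8339 to 22688, the percentage stayed between 7.58 and 7.68. The part of these cells in the mitochondrial levels was not tested. The sum of 10 oligodendrocyte markers was 285134, 207770 and 324988 in 5xFAD, against 261514, 215451 and 272413 in WT, and that of 12 noradrenergic markers was 11128, 15597 and 11976 in 5xFAD, against 12726, 14132 and 8101 in WT. Sums of astrocyte, microglia, vascular and choroid or ependymal markers overlapped between the genotypes as well, and no marker of any of these lists was called. Log2 fold changes were above 0 for 4 of 10 astrocyte, 7 of 10 microglia, 8 of 10 vascular, 10 of 10 oligodendrocyte, 8 of 12 noradrenergic and 0 of 7 measurable choroid or ependymal markers. The choroid marker Ttr stood apart in WT library 66, at 1107 beside 10.2 to 61.2 in the other 5 libraries. Gfap, a filament protein of astrocytes, had a log2 fold change of 0.63 (SE 0.15, adjusted p = 0.9995 by limma).

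Nuclear genes that serve the same complexes were read beside the mitochondrial ones. Of 36 measured nuclear subunits of complex I, 35 had a log2 fold change below 0, with a median of −0.09, and 0 were called. At an unadjusted limma p under 0.05, 4 of the 36 were lower in 5xFAD, beside 1.05% of all tested genes. Ndufv3, an accessory subunit, read 704, 699 and 686 in 5xFAD, against 796, 768 and 784 in WT (log2 fold change −0.17, SE 0.06, adjusted p = 0.9995). Ndufb4 had −0.20 (SE 0.07) and Ndufs6, a subunit near the NADH-binding end, had −0.21 (SE 0.08). The highly expressed core subunit Ndufs1 had −0.06 (SE 0.06). Of 36 nuclear genes of complexes III to V, 36 were below 0, with a median of −0.08, and 0 were called. Lower at an unadjusted limma p under 0.05 was 1 of the 36, beside the same 1.05% of all tested genes. Cox7b of complex IV read 2382, 2227 and 2408 in 5xFAD, against 2710, 2460 and 2778 in WT (log2 fold change −0.18, SE 0.06). Cox5b had −0.14 (SE 0.06) and Uqcrq of complex III −0.12 (SE 0.06), while Atp5a1 and Atp5b, the 2 main subunits of the ATP synthase head, had −0.06 and −0.05 (SE 0.06 each). Among the 1175 other genes with a mean at least as high as that of the lowest measured mitochondrial gene, 64.8% were below 0 with a median of −0.02, against 49.8% and 0.0005 for all tested genes. The sums of both nuclear lists overlapped between the genotypes, and WT library 63 was the lowest WT library in each, with 46589 beside 50483 and 52052 for complex I.

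**Figure D5:**
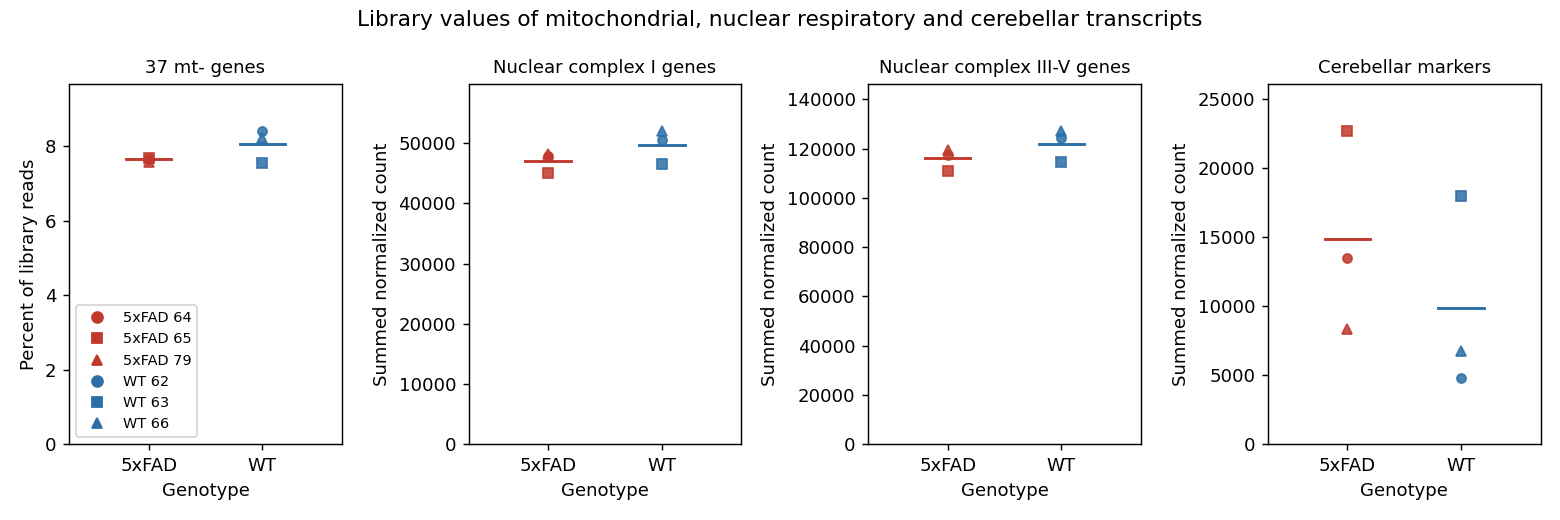
Percent of library reads on the 37 mitochondrial genes, and summed normalized counts of nuclear complex I genes, nuclear genes of complexes III to V and cerebellar markers, with 1 point per library and a line at the group mean. The genotypes overlap in all 4 panels, and WT library 63 stands below the other WT libraries in the first 3 panels and above them in the last.

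The nuclear machinery that copies, reads and processes the mitochondrial genome showed no called gene, beside 0.00609% of all tested genes. Of 20 genes for transcription and replication of mitochondrial DNA, 15 were above 0 and 5 below, with a median log2 fold change of 0.05. Among all tested genes, 49.8% were below 0. Polrmt, the mitochondrial RNA polymerase, read 357, 344 and 337 in 5xFAD, against 307, 268 and 306 in WT. The groups did not overlap (log2 fold change 0.24, SE 0.09, limma adjusted p = 0.9995). Twnk, the helicase of mitochondrial DNA replication, read 237, 255 and 248 in 5xFAD, against 216, 232 and 216 in WT (log2 fold change 0.15, SE 0.09). The sum over the 20 genes was 6234, 6144 and 6126 in 5xFAD, against 6099, 5975 and 6015 in WT, so the 5xFAD libraries were above the WT libraries by a small gap. Mterf1b had a log2 fold change of 0.28 (SE 0.22), Rrm2b, a ribonucleotide reductase subunit, −0.05 (SE 0.06), and Polg, the catalytic subunit of the mitochondrial DNA polymerase, 0.005 (SE 0.07), a value whose sign turned under quantile normalization and without single libraries.

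Of 27 genes for processing and stability of mitochondrial RNA, 12 were above 0 and 15 below, with a median of −0.02. Lrpprc, which stabilises mitochondrial messengers, had a log2 fold change of −0.01 (SE 0.06), whose sign turned with scaling to the reads of all genes. Grsf1, a protein of mitochondrial RNA granules, had −0.10 (SE 0.06), Ptcd2 −0.20 (SE 0.10), Fastkd1 0.16 (SE 0.09) and Fastkd3 −0.17 (SE 0.10). Of 17 regulators of mitochondrial biogenesis and turnover, 10 were above 0 and 7 below, with a median of 0.01. Gabpb1, a subunit of the transcription factor that drives many nuclear respiratory genes, read 356, 330 and 324 in 5xFAD, against 293, 303 and 296 in WT (log2 fold change 0.18, SE 0.08), without overlap. Yy1 had 0.10 (SE 0.07) and Pprc1, a coactivator, 0.13 (SE 0.11). The fission protein Dnm1l had −0.03 (SE 0.05) and the kinase Pink1, which marks damaged mitochondria, 0.02 (SE 0.05), with its sign turning without 5xFAD library 79.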

How the data were processed

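Bulk RNA sequencing of locus coeruleus punches was compared between 3 5xFAD and 3 WT libraries, grouped by sample titles. STAR, RSEM, DESeq2 and the build mm39 are named in the submitters' processing notes, while settings, annotation release and counting strand were not given in the sources used here. Counts of overlapping genes are therefore uncertain, and no genome positions are printed. Although the table is named as TPM, the deposited signal of a gene is its read count over the library's size factor: after multiplying by that factor, 100% of the values of each library were whole numbers (tolerance 0.001). The same deposited table holds the authors' log2 fold change and its error, their test score, and their p-value for each gene. Their fold change has WT on top, so it is printed here with the opposite sign.

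The members, gene lists and tests were chosen with earlier results of these data known. Genes with at least 10 normalized counts in 3 of 6 libraries (16411) entered limma 3.58.1 under R 4.3.3 (variance trend, robust moderation) on the scale log2(normalized count + 1), with Benjamini-Hochberg adjustment at 0.05. This scale understates fold changes of low genes. Named were all members that passed this filter, and from each list up to 3 tested genes by smallest p and 2 by highest mean, except where a gene is not reported here. DESeq2 1.42.0 and edgeR 4.0.16 were run on recovered reads. Nuclear copies were found with blastn 2.17.0 on GENCODE M21 transcripts, whose build (GRCm38) is not that of the files. Adding their reads was chosen after the data were seen. The scripts were tested on simulated data. Figures used matplotlib 3.10.9 in Python 3.11.15. Depth ran from 15158712 to 20079349 reads per library, and the median SD within groups on the log2 scale was 0.097 over the measured members and 0.138 over all tested genes. Error limits set by a count of 0 cover counting error only.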

Additional observations from a re-analysis of the deposited data

How the results depend on the processing

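No mitochondrial gene was called at an adjusted p of 0.05 under any alternative, which covered edgeR, DESeq2, other scalings, pseudocounts, filters, the sum with the nuclear copies and leaving out each library. The smallest adjusted p of a member was 0.235 (mt-Co2, limma without WT library 63) and 0.285 by DESeq2. Over all genes, the count of 1 became 3 with DESeq2 and 0 without variance trend or robust moderation, both as deposited and with the copies added, and 0 with the copies added and a filter of 50. Leaving out 1 library gave 0 to 2 calls in either table. The gene called without a filter on low values was not Thy1. The difference in mitochondrial read percentage ranged from −0.670 to −0.235 when 1 library was left out, and that in the mean log2 value from −0.158 to −0.0384. The count of coding genes without overlap in make-up ranged from 2 to 4, and was 1 with the copies added. With 1 library left out, log2 fold changes ranged from −0.0364 to 0.584 for mt-Co3, −0.141 to 0.0727 for mt-Atp8, −0.137 to 0.00618 for mt-Rnr2, −0.0166 to 0.0442 for Polg, −0.0450 to 0.0239 for Lrpprc and −0.00950 to 0.0364 for Pink1. Signs turned for mt-Co3 (−0.0364 without WT 66, −0.0884 with its copy), mt-Atp8 (0.0341 without 5xFAD 65, 0.0727 without WT 63), mt-Rnr2 (0.00618 without WT 62) and mt-Nd4 (0.0330 with quantile normalization). Among nuclear genes, they turned for Polg (−0.00231 with quantile normalization, −0.0147 without 5xFAD 64, −0.0147 without 5xFAD 79, −0.0166 without WT 62, −0.00439 without WT 66), Lrpprc (0.00365 scaled to reads of all genes, 0.0211 without 5xFAD 65, 0.0239 without WT 62) and Pink1 (−0.00950 without 5xFAD 79). The cause of these turns was not tested. Quantile normalization ties genes that keep the same rank in all libraries, which sets the differences of some of the highest mitochondrial genes to 0. No paired analysis was possible because the genotypes share no replicate number. With 3 libraries a genotype and a median SE of 0.0722 among members, small differences were not detectable.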
